A study of Mus musculus with 2 samples.

Results

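The genes described here are 10 mitotic regulators, *Ube2c*, *Cdc20*, *Fzr1*, *Cdk1*, *Ccnb1*, *Plk1*, *Aurka*, *Cenpf*, *Top2a* and *Mki67*. They were chosen by name for their role in mitosis, with earlier results of these data known, and are 10 of the 31053 genes in the deposited matrices. All 10 were measured in both libraries, and none was lost to a filter on low counts.

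The study compared mouse embryonic stem cells (mESCs) that lack the BMP signal transducers SMAD1 and SMAD5 with their parental line by single-cell RNA-seq (scRNA-seq). The parental cells, labelled WT, were E14 mESCs. The other cells, labelled S1/5 dKO, were E14-derived *Smad1/5* double knockout cells made with CRISPR-Cas9. Both were grown without feeder cells in serum with leukemia inhibitory factor (LIF), at 15% fetal bovine serum and 1000 U/ml LIF, and neither had a further treatment. There was 1 library per genotype, aimed at 3000 cells, so the spread between cultures is unknown and no test between genotypes was possible. The intervals below are exact 95% intervals that cover counting error only. Which double knockout line was used is not given in the sources used here.

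Mitosis is driven by the kinase CDK1 bound to cyclin B1. Its end is set by the anaphase-promoting complex (APC/C), a ubiquitin ligase that works with the E2 enzymes UBE2C and UBE2S and with the co-activators CDC20, in mitosis, and FZR1 (CDH1), from late mitosis into G1. The APC/C marks cyclin B1, securin and later CDC20, PLK1 and AURKA for destruction, so the proteins fall at the end of each division, and transcription of many of their genes peaks in G2 and M phase. mESCs divide rapidly and have a short G1 phase, so many cells of a culture hold mitotic transcripts at any time.

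Many promoters of G2/M genes hold a cell cycle homology region (CHR), here searched as TTTGAA or TTTAAA on either strand, and CCAAT boxes, searched as CCAAT on either strand. The promoters of all 10 genes were found in the RefSeq table (GRCm38.p6), and 6 are shown from 100 bases before to 30 bases after the annotated start, 5′ to 3′ on the strand of the gene. They are shown because *Ube2c* had the highest level, *Cdc20* and *Top2a* the lowest correlation over cells of all pairs, *Fzr1* no CHR match, and *Cdk1* and *Ccnb1* encode the central kinase and cyclin. Capitals mark the matches. The windows are chr2:164769829-164769958 (plus strand) for *Ube2c*, chr4:118437314-118437443 (minus) for *Cdc20*, chr10:81378341-81378470 (minus) for *Fzr1*, chr10:69352883-69353012 (minus) for *Cdk1*, chr13:100786457-100786586 (minus) for *Ccnb1* and chr11:99024160-99024289 (minus) for *Top2a*.
Ube2c: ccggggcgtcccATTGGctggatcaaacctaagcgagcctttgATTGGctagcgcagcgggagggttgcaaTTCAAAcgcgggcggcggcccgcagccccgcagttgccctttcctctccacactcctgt
Cdc20: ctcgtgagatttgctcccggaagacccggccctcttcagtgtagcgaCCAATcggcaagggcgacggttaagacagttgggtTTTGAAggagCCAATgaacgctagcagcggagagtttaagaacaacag
Fzr1: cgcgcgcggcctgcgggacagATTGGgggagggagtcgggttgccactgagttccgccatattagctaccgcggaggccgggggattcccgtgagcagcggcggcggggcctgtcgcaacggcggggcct
Cdk1: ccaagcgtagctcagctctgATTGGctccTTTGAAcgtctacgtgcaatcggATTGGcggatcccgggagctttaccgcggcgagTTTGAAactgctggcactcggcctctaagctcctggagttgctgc
Ccnb1: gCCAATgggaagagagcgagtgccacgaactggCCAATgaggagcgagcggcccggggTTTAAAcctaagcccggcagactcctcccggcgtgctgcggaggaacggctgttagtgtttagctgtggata
Top2a: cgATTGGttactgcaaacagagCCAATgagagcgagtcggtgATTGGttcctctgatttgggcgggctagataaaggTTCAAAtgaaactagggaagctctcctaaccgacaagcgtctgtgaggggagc

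In the whole window of 250 bases before to 50 bases after the start, 9 of the 10 promoters held a CHR-type match, against 27.6% of 32851 promoters in the table. *Fzr1* was the promoter without one. A CHR-type match within 100 bases before the start or in the 50 bases after it was found in the same number, 9 of 10, against 12.8% of all promoters. All 10 held a CCAAT, and 8 held at least 2, against 37.4% and 11.7% of all promoters. In *Ube2c* the 6 CCAAT matches include an overlapping pair on opposite strands, which begin at positions -186 and -183 from the start. Other gene lists differed in this respect, with a CHR-type match in 12 of 13 matched promoters of spindle and cytokinesis genes but in 2 of 13 of the APC/C subunits themselves. These matches are descriptions of the letters and not evidence of binding.

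The WT library held 2236 cells with 1000 or more detected genes and no more than 5% of unique molecular identifiers (UMIs) from mitochondrial genes, and the S1/5 dKO-labelled library held 2910. Their median UMI totals per cell were 38662 and 34548.5, and no cell barcode was shared. *Smad1* was lower in the S1/5 dKO-labelled library by a log2 ratio of -0.55 (-0.67 to -0.43), from 1285 to 1000 UMIs, but *Smad5* was higher by 0.59 (0.44 to 0.74), from 581 to 991 UMIs. The higher *Smad5* does not follow the label, but a 3′ count need not read the CRISPR lesion and so does not test the genotype. The paper reports less mRNA of BMP target genes in the double knockout cells, and takes this as evidence that the knockout took effect. Those target genes were not examined here, and every direction below is drawn from the label. The 8 markers of embryonic stem cells summed to 3956 and 3986 UMIs per 1000000 (CPM), while 6 fibroblast markers summed to 0.80 and 1.05 CPM with 3 and 1 of them at 0, and 6 endoderm markers to 2.01 and 2.14 CPM. The 5 markers of the 2C-like state summed to 1.77 and 4.76 CPM, from 170 and 519 UMIs. All 4 of them with 50 or more UMIs in all were higher in the S1/5 dKO-labelled library, 2 of them by 2-fold or more. Of all genes, 47.9% were higher and 1.30% were 2-fold apart in either direction. The paper, which counted cells, reports that SMAD1/5 loss left the size of its 2C-like cluster unaffected.

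All 10 genes were well expressed, and they followed the same order of level in both libraries. Levels are in CPM, from the UMIs summed over cells. A 3′ UMI counts a transcript once whatever its length, so no division by length was made, but the efficiency of capture may still differ between genes. *Ube2c*, the E2 enzyme that starts ubiquitin chains on APC/C substrates, led at 759 CPM (753 to 764) in WT and 828 CPM (823 to 834) in the S1/5 dKO-labelled library. It ranked 198 and 178 among all genes. *Cdc20*, the mitotic co-activator, followed at 361 and 344 CPM, and *Fzr1*, the other co-activator, was near the end of the order at 65.7 and 69.0 CPM. Only *Mki67* was lower than *Fzr1*.

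*Cdk1* came after *Cdc20*, with 316 CPM in WT and 327 CPM in the S1/5 dKO-labelled library. *Ccnb1*, which encodes its cyclin, stood at 222 and 232 CPM. Between them stood *Top2a*, the topoisomerase that untangles sister chromatids, at 266 and 291 CPM. *Cenpf*, a large protein of the outer kinetochore, was close below *Ccnb1* at 200.2 and 212 CPM. The mitotic kinases *Aurka* (102 and 113 CPM) and *Plk1* (92.9 and 97.3 CPM) formed a lower group with *Fzr1*. *Mki67*, which coats mitotic chromosomes and is widely used as a proliferation marker, was lowest at 58.3 and 63.4 CPM.

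No neighbours in this order had overlapping counting intervals in either library. *Cdc20* and *Cdk1* were 1.14-fold apart in WT and 1.05-fold apart in the S1/5 dKO-labelled library, where they were the closest neighbours. In WT the closest were *Aurka* and *Plk1*. The steps from *Ube2c* to *Cdc20* (2.10- and 2.41-fold) and from *Cenpf* to *Aurka* (1.96- and 1.88-fold) were the largest. With 1 library per genotype, it is not known which of the smaller steps would hold between cultures.

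**Figure D1:**
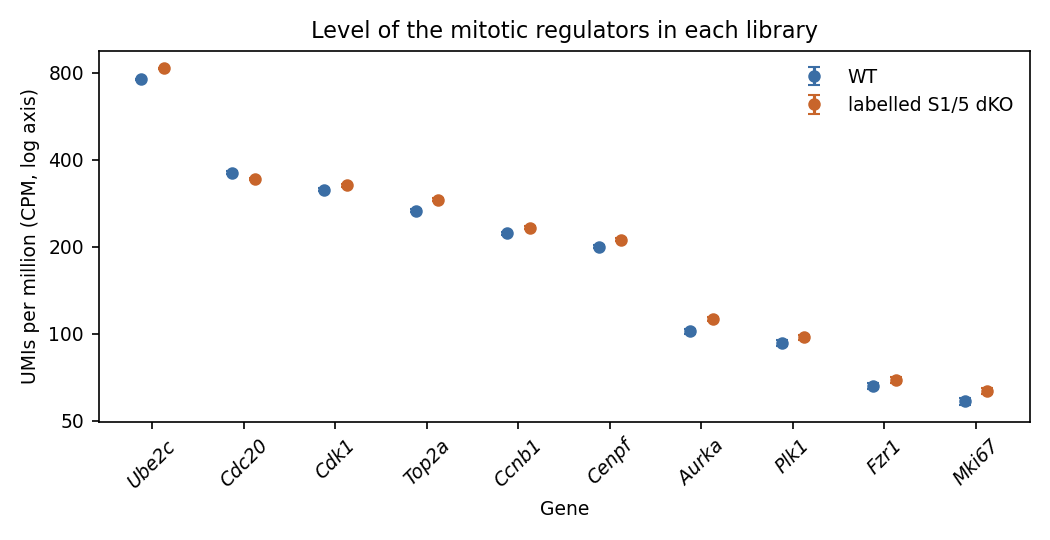
Level of each gene in UMIs per 1000000 (CPM, log axis) in the WT library and in the S1/5 dKO-labelled library, 1 library each, with exact 95% Poisson intervals of the counts, most of them smaller than the points. The genes stand in the same order in both, from *Ube2c* at 759 and 828 CPM to *Mki67* at 58.3 and 63.4 CPM.

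In single cells, *Ube2c* had a median of 21 UMIs in WT (5th to 95th percentile 3 to 95.25) and 23 in the S1/5 dKO-labelled library (4 to 81). *Cdc20* had medians of 14 and 11 UMIs, *Cdk1* of 10 in both, *Top2a* of 8 in both and *Mki67* of 2 in both. Without thinning, the share of cells with a UMI ran from 75.4% for *Mki67* to 99.7% for *Ube2c*. To set cells of different depth side by side, each cell was thinned to 10000 UMIs, which left out 43 and 67 shallower cells.

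At that depth *Ube2c* was found in 96.0% of WT cells (95.1 to 96.8) and in 97.9% of cells of the S1/5 dKO-labelled library (97.3 to 98.4). *Cdc20* was found in 94.2% and 94.9%, *Cdk1* in 88.6% and 90.4%, and *Ccnb1* in 84.7% and 85.2%. *Mki67* was found in 38.5% and 41.4%, the lowest shares. Most cells thus held transcripts of the cyclin, its kinase and the E2 enzyme together. The median cell held 7 of the 10 genes, 6.02% and 6.23% of cells held all 10, and no cell held none, which over 2193 and 2843 cells allows shares of up to 0.137% and 0.106%. No cell type that lacks these genes was identified in the cultures to set as a background. Barcodes with 10 to 100 UMIs, taken as empty, held on average 0.0144 and 0.0179 *Ube2c* UMIs, against means of 32.6 and 31.0 per cell. The profile of those empty barcodes still contained the genes, with *Ube2c* at 591 and 663 CPM.

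*Ube2c* had the highest variance relative to its mean. The Fano factor, the variance of the thinned UMIs over their mean, was 4.30 for *Ube2c* in WT and 3.48 in the S1/5 dKO-labelled library. That was above 99.5% and 98.9% of the 2532 genes with a mean of at least 0.5 thinned UMIs, whose median was 1.09. *Top2a* (1.94 and 1.82), *Cenpf* (1.90 and 1.77), *Cdk1* (1.67 and 1.54) and *Cdc20* (1.56 and 1.44) came next, and *Fzr1* had the lowest value of the 10, at 1.20 in both. The Fano factor rises with the mean, and *Ube2c* had the highest mean, 6.97 and 7.77 thinned UMIs. The Fano factor less 1, divided by the mean, was 0.474 and 0.319 for *Ube2c*, below *Cenpf* (0.478 and 0.389) and *Mki67* (0.568 and 0.370). Relative to its level, *Ube2c* thus did not vary most. In WT the thinned *Ube2c* counts were concentrated at low values, with a median of 5 UMIs and a 95th percentile of 18. In the S1/5 dKO-labelled library the median was 7 UMIs and the 95th percentile again 18. The upper end was thus alike, and fewer cells sat at the low end.

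**Figure D2:**
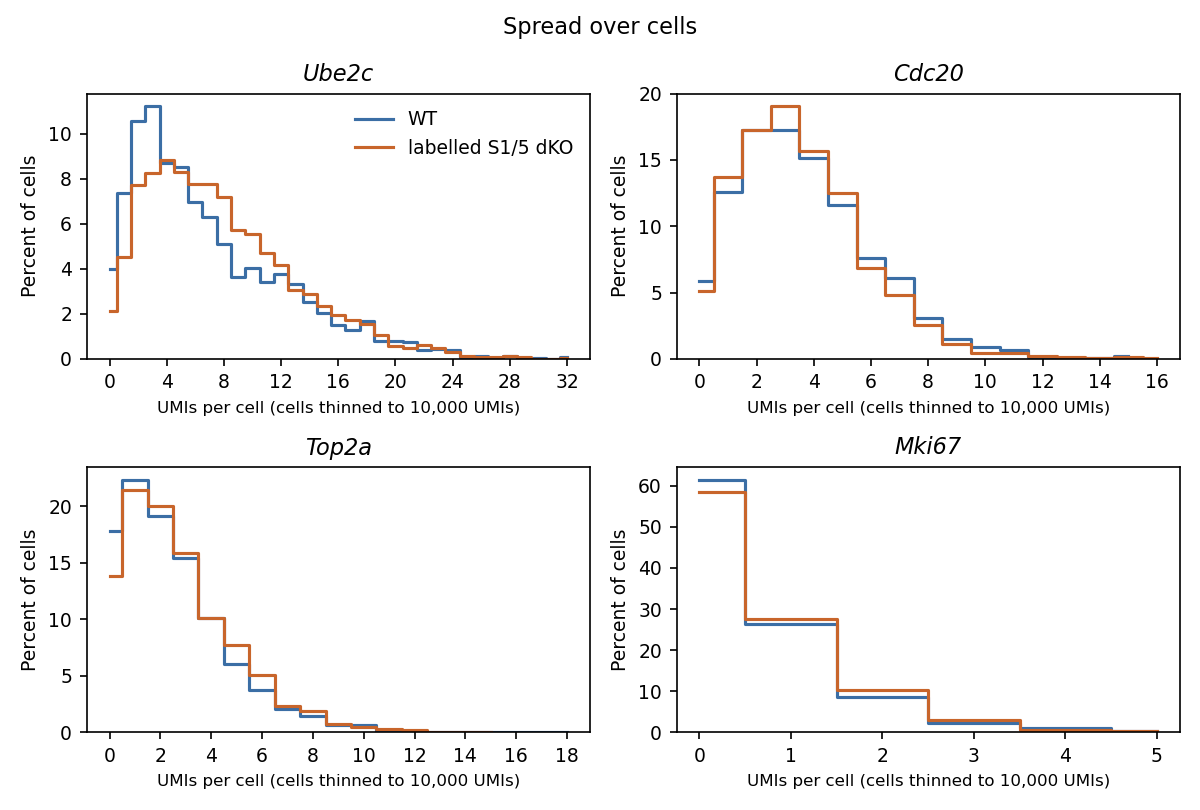
Percent of cells (vertical axes, from 0) by UMIs of 4 of the genes per cell thinned to 10000 UMIs (horizontal axes), for 2193 WT cells and 2843 cells of the S1/5 dKO-labelled library. *Ube2c* has a long right tail in both libraries and more WT cells at its low end, with medians of 5 and 7 UMIs, while most cells have 0 UMIs of *Mki67*.

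The level of 9 of the 10 genes was higher in cells with more UMIs, also as a share of those UMIs. Cells of each library were split into quintiles of their UMI total, with median totals from 24644 to 64741.5 in WT and from 21673 to 56776.5 in the S1/5 dKO-labelled library. The summed CPM of the 10 genes was 1826 in the lowest and 2904 in the highest WT quintile, a log2 ratio of 0.67 (0.65 to 0.69). It was 1993 and 2941 in the S1/5 dKO-labelled library, a log2 ratio of 0.56 (0.54 to 0.58). The median over all genes compared was -0.00 in WT and 0.02 in the other library, as CPM removes the total itself.

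*Top2a* had the largest ratio of highest over lowest quintile, at log2 1.01 (0.94 to 1.09) in WT and 1.06 (0.99 to 1.13) in the S1/5 dKO-labelled library, above 97.9% of genes in each. *Fzr1* followed in both (0.97 and 0.94), and then *Cdk1* (0.95) in WT and *Cenpf* (0.78) in the other library. *Ube2c* went from 539 CPM in the lowest WT quintile through 554, 598 and 837 to 949 CPM in the highest. In the S1/5 dKO-labelled library it went from 621 through 679, 712 and 924 to 963 CPM. The step from the third to the fourth quintile was the largest for *Ube2c* in both libraries. It was also the largest for the other 8 genes with this pattern, except *Mki67* in the S1/5 dKO-labelled library.

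*Cdc20* did not share this pattern. Its level was 392 CPM in the lowest WT quintile and 336, the lowest value, in the third, and it reached 363 CPM in the highest. In the S1/5 dKO-labelled library it was 391 CPM in the lowest and 336 CPM in the highest quintile. The ratios of highest over lowest quintile were log2 -0.11 (-0.16 to -0.06) and -0.22 (-0.27 to -0.17), while the other 9 genes lay between 0.55 and 1.01 in WT and between 0.50 and 1.06 in the other library. The order of the genes therefore depended on the cells taken. In the lowest WT quintile *Cdc20* stood at 392 CPM against 200.1 CPM for *Cdk1*, and in the highest at 363 against 387 CPM. In the highest quintile of the S1/5 dKO-labelled library, *Cdc20* at 336 CPM was below both *Cdk1* at 379 and *Top2a* at 359 CPM.

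The quintiles differed in other respects. The median share of mitochondrial UMIs was 1.90% in the lowest and 1.62% in the highest WT quintile, and 2.00% and 1.76% in the S1/5 dKO-labelled library. The median number of detected genes was 4376 and 6564.5 in WT, and 4036.5 and 6220.5 in the other library. Their part in the result was not tested. Without the 135 and 140 cells above 2 times the median total, *Cdc20* kept ratios below 0 (-0.07 and -0.23) and the other 9 genes lay between 0.51 and 1.07.

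**Figure D3:**
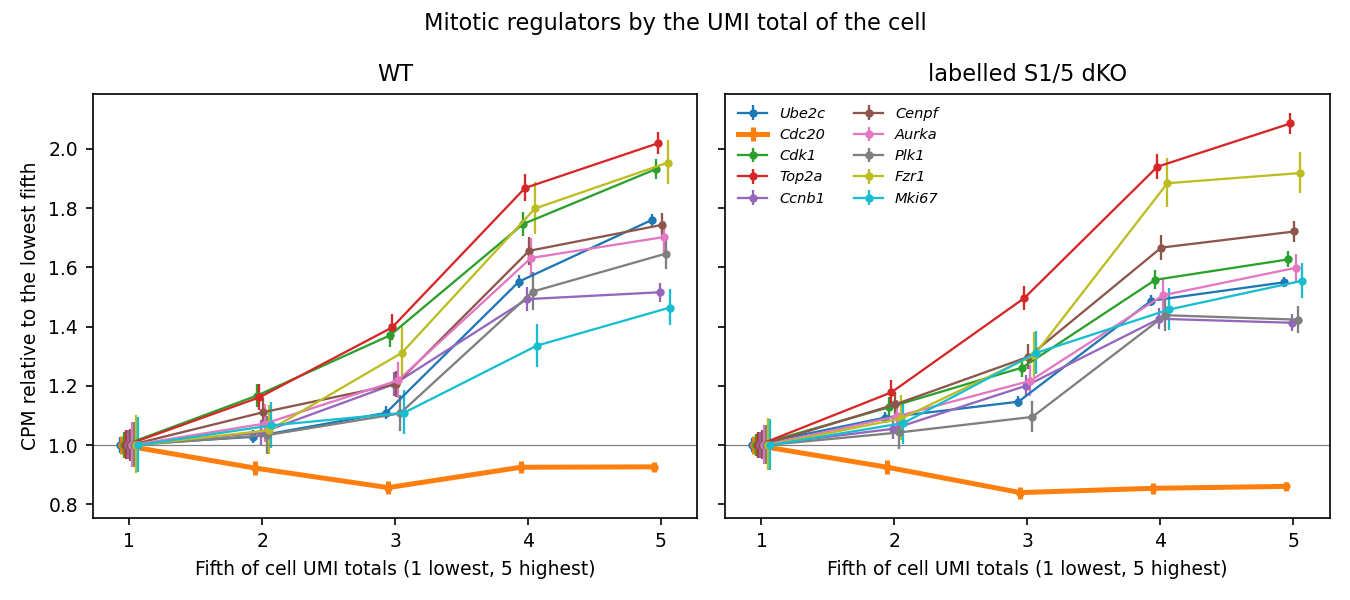
CPM of each gene relative to its CPM in the lowest quintile (vertical axis) in the 5 quintiles of cell UMI total (horizontal axis), for each library, with exact 95% Poisson intervals of each count. *Cdc20*, the thick line, ends below 1 in both, and the other 9 genes end between 1.46 and 2.02 in WT and between 1.41 and 2.09 in the S1/5 dKO-labelled library.

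Read the other way, cells rich in these transcripts had higher UMI totals. WT cells in the upper part of the summed thinned UMIs of the 10 genes (35 to 71, 408 cells) had a median total of 50848 UMIs, and those in the lower part (1 to 13, 484 cells) of 33371.5. The corresponding groups in the S1/5 dKO-labelled library (35 to 76, 552 cells, and 2 to 15, 659 cells) had medians of 44075.5 and 30809 UMIs. Split by *Cdc20* alone, the medians were 40257 in the upper and 39093 in the lower WT cells, and 33740.5 and 35630 in the S1/5 dKO-labelled library. The limits of all these groups were set within each library, and ties make the groups unequal in size.

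The 10 genes were co-expressed over cells to very different degrees. Correlations are Pearson's r of the natural logarithm of 1 plus the thinned UMIs, over 2193 and 2843 cells that share a library, and they are descriptions without a test. The median over the 45 pairs was 0.20 in WT and 0.18 in the S1/5 dKO-labelled library, whereas the median gene of 6062 had a median r with the 10 genes of 0.00 in both. *Ube2c* had the highest values, with a median r with the other 9 genes of 0.33 and 0.29. Counting noise lowers r more for genes with few UMIs, and *Ube2c* had the highest mean, 6.97 and 7.77 thinned UMIs. How much of each r comes from the level of the genes was not tested. The pair with the highest r was *Ube2c* with *Cdk1*, at 0.45 and 0.38. *Ube2c* with *Cenpf* followed at 0.40 and 0.36, then *Ube2c* with *Plk1* at 0.36 and 0.32. The pair of the kinase *Cdk1* and its cyclin *Ccnb1* had an r of 0.20 and 0.19.

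The means of the thinned counts show the same relation on the scale of UMIs. In WT cells with 13 to 32 *Ube2c* UMIs, the mean count of *Cdk1* was 4.71 UMIs, against 1.81 in cells with 0 to 2. *Cenpf* went from 1.05 to 3.30 UMIs between these cells, *Top2a* from 1.67 to 3.85 and *Aurka* from 0.506 to 1.59. *Cdc20* went from 3.24 to 4.76 UMIs, a smaller relative difference. In the S1/5 dKO-labelled library, *Cdk1* went from 2.00 UMIs in cells with 0 to 3 *Ube2c* UMIs to 4.55 in cells with 13 to 32.

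*Cdc20* and *Mki67* stood at the low end of co-expression. The median r of *Cdc20* with the other 9 genes was 0.08 in WT and 0.07 in the S1/5 dKO-labelled library, and that of *Mki67* was 0.10 and 0.07. They differ in level, since *Cdc20* is the second most abundant of the 10 genes and *Mki67* the least abundant. The highest r of *Cdc20* was with *Ube2c*, at 0.19 in both libraries. With *Top2a* it was near 0, at -0.04 and -0.06, and WT cells with 5 to 18 *Top2a* UMIs held 3.64 *Cdc20* UMIs on average, against 3.76 in cells with 0 or 1. *Mki67* had its highest r with *Cenpf*, at 0.21 and 0.20. *Fzr1*, although sparse, had an r with *Ube2c* of 0.27 and 0.24.

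**Figure D4:**
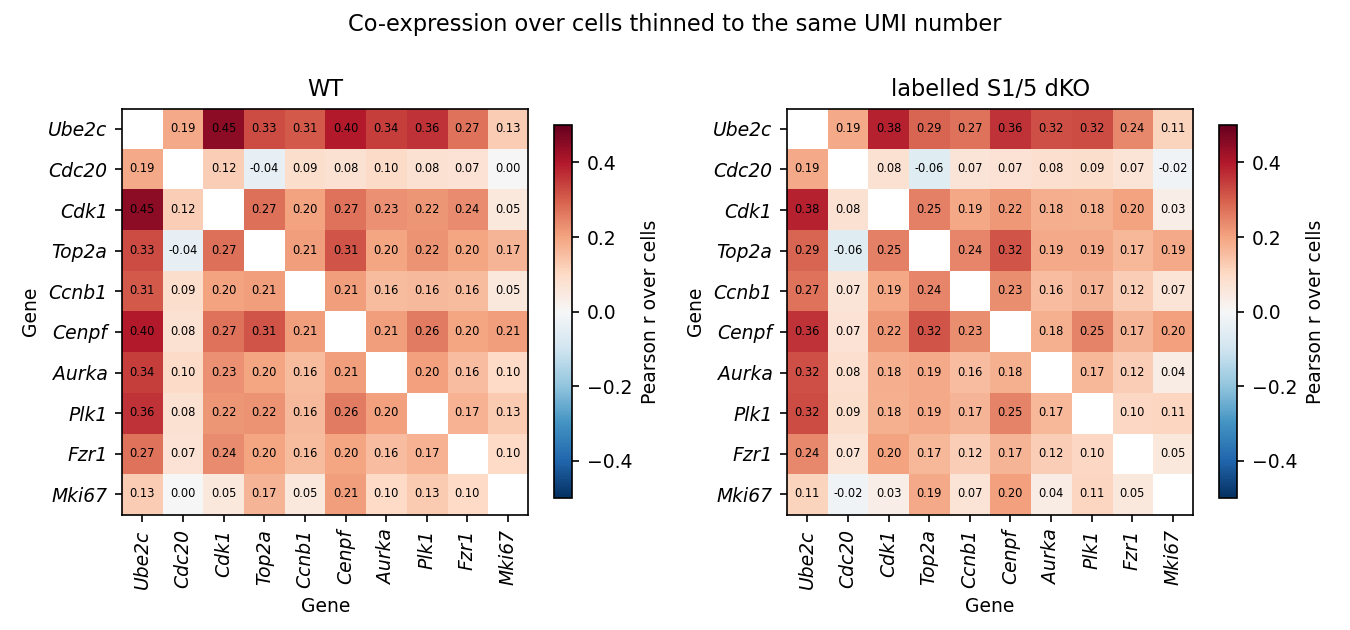
Pearson's r of each pair of genes (both axes, in order of level) over 2193 WT cells and 2843 cells of the S1/5 dKO-labelled library, thinned to 10000 UMIs, with the colour scale from -0.5 to 0.5. The *Ube2c* row holds the highest values, up to 0.45 and 0.38 with *Cdk1*, and the *Cdc20* row values of 0.19 at most.

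The levels of the genes differed little between the libraries. Summed over the 10 genes, the level was 2442 CPM in WT and 2576 CPM in the S1/5 dKO-labelled library, a log2 ratio of 0.08 (0.07 to 0.08). None of the 10 differed by 2-fold, where 1.30% of 13654 genes did, counting those with 50 or more UMIs in all. The log2 ratio was above 0 for 9 of 10, where 47.9% of those genes were above 0, and the genes are co-expressed and so do not count as separate observations. Their median was 0.08, beside a median of -0.01 and a 5th to 95th percentile of -0.44 to 0.40 over all genes.

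Of the APC/C partners, *Ube2c* had a log2 ratio of 0.13 (0.11 to 0.14), *Fzr1* of 0.07 (0.02 to 0.12) and *Cdc20* of -0.07 (-0.09 to -0.05). *Cdc20* was the gene with less in the S1/5 dKO-labelled library, also under all 11 other ways of counting that were tried. Those ways reuse the same libraries, and most hardly move the ratio, so they are not separate support. *Cdk1* and *Ccnb1* had ratios of 0.05 (0.03 to 0.07) and 0.06 (0.04 to 0.09). The kinase *Aurka* had the highest ratio, 0.14 (0.11 to 0.18), and *Plk1* 0.07 (0.03 to 0.11). *Top2a* stood at 0.13 (0.11 to 0.16), *Mki67* at 0.12 (0.07 to 0.17) and *Cenpf* at 0.08 (0.05 to 0.11). Each of these lay well inside the range of all genes, and between 38.8% and 73.5% of genes were farther from 0. That range includes genes with far fewer UMIs, whose ratios carry more counting error. With a minimum of 500 UMIs, 0.361% of genes were 2-fold apart, against 1.30% with the minimum of 50 used here. The ratios were not set beside those of genes with similar UMI counts alone, so their rank among equally well measured genes is not known.

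Since the level was higher in cells with more UMIs and cells of the S1/5 dKO-labelled library had lower totals, the ratio was also taken within 5 common bins of the cell total, an alternative added after the data had been seen. The mean log2 ratio over the bins for the summed UMIs, with equal weight for each bin whatever its UMIs, was 0.19, above the 0.08 over all cells. *Ube2c* had ratios of 0.22, 0.35, 0.42 and 0.43 in the 4 lower bins and of -0.04 (-0.06 to -0.02) in the bin above 50005 UMIs. *Top2a* stood at 0.40 and *Fzr1* at 0.41 in the fourth bin. *Cdc20* did not exceed 0 in any bin, with ratios from -0.16 to -0.00. In the lowest bin 8 of the 10 genes were above 0, in the 3 middle bins 9, and in the top bin 3, while 44.8% to 53.1% of all genes were.

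A common bin takes cells of different rank in each library, from 333 WT and 696 cells of the other library in the lowest bin to 561 and 469 in the top bin. Compared quintile by quintile of each library's own totals, *Ube2c* had log2 ratios of 0.20, 0.29, 0.25, 0.14 and 0.02. Those of *Cdc20* were -0.01, -0.00, -0.03, -0.12 and -0.11. The *Cdc20* intervals included 0 up to the third quintile, at -0.03 (-0.09 to 0.02), and lay below 0 above it. In that comparison 9 genes were above 0 in each of the 4 lower quintiles and 7 in the highest. By either split the top of the range differed least for *Ube2c*. Whether the libraries differ in RNA per cell or in the depth of capture cannot be told apart.

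**Figure D5:**
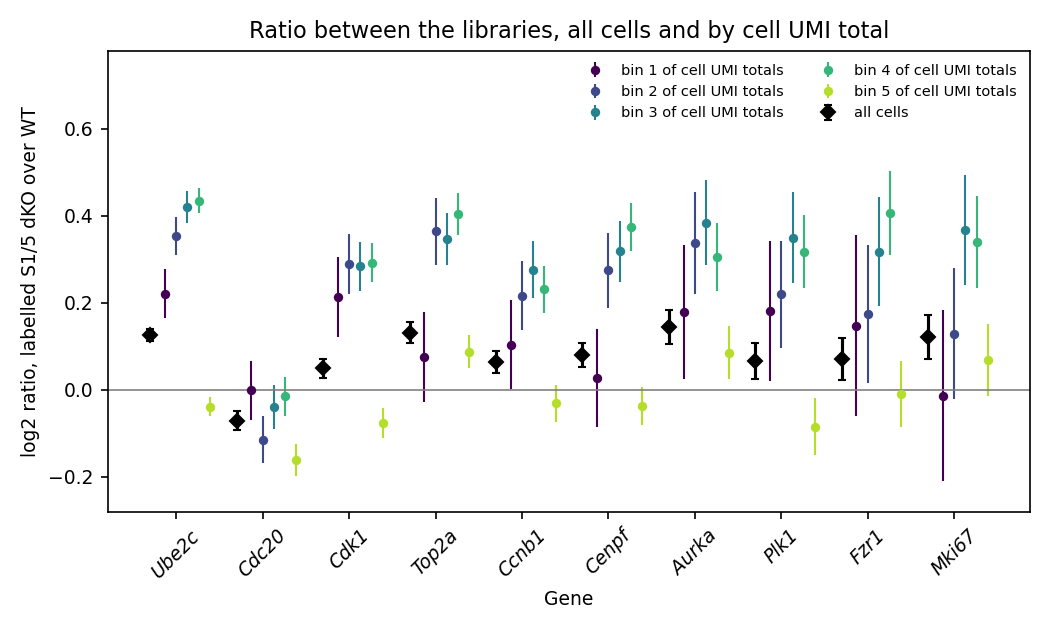
Log2 ratio of the S1/5 dKO-labelled library over WT for each gene (vertical axis, genes on the horizontal axis), over all cells (diamonds) and in 5 common bins of the cell UMI total, from 1485 to 27304 UMIs (bin 1) to 50005 to 198658 UMIs (bin 5), with exact 95% intervals of the counts. In bin 5 the ratio of *Ube2c* is -0.04 and in bin 4 it is 0.43. The ratio of *Cdc20* does not exceed 0, and its interval includes 0 in bins 1, 3 and 4.

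The genes of the mitotic and G1/S lists around the 10 also differed little between the libraries, apart from *Plk4* and *Mcm5*. The log2 ratios of these, 0.51 and -0.71, lay outside the 5th to 95th percentile of all genes, -0.44 to 0.40. None of the 110 list genes tested was 2-fold apart, beside 1.30% of all genes, a share that allows little to be read from this count. The counts above 0 that follow stand beside 47.9% of all genes. Of the 14 APC/C subunits, 9 were above 0, with a median of 0.03, from 0.13 for *Cdc26* (187 and 205 CPM) to -0.13 for *Anapc4* (24.7 and 22.6 CPM). These constitutive subunits also had a median r with the 10 genes of 0.01 in both libraries. Of 10 APC/C regulators and spindle checkpoint genes, 7 were above 0, with a median of 0.02. The highest was *Ube2s*, the E2 enzyme that extends the chains that UBE2C begins, with 1188 CPM in WT and 1387 CPM in the S1/5 dKO-labelled library, a log2 ratio of 0.22 (0.21 to 0.23). Its level was above that of *Ube2c*, and its median r with the 10 genes was 0.11 and 0.06.

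Of 16 further mitotic cyclins and kinases, 8 were above 0 and the median was 0.00. The lowest was *Haspin* at -0.10 (-0.19 to 0.00). *Plk4*, the kinase of centriole duplication, stood apart at 79.6 and 113 CPM, a log2 ratio of 0.51 (0.47 to 0.55), but its r with the 10 genes was -0.03 and -0.02. Of 15 kinetochore and chromosomal passenger genes 11 were above 0 (median 0.06), led by *Nusap1* at 0.20 and the centromeric histone *Cenpa* at 0.19. *Spc24* was the lowest of the kinetochore list, at -0.14 (-0.17 to -0.12). Of 15 spindle and cytokinesis genes 9 were above 0 (median 0.03), and of 10 genes of condensin and cohesin release 8 were (median 0.02). Securin, *Pttg1*, an APC/C substrate that holds separase in check, had the highest log2 ratio of the latter, at 0.30 (0.26 to 0.34). It stood at 101 and 125 CPM. *Ncapd2* had their lowest ratio, at -0.12 (-0.18 to -0.05).

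The 10 regulators of G2/M transcription had a median near 0. *Foxm1*, a factor that activates G2/M genes, stood at 8.47 and 8.12 CPM, and the list had 4 genes above 0 and a median of -0.06. *Lin54*, which binds CHR elements, was lowest at -0.28 (8.32 and 6.84 CPM). Of 20 G1/S genes 15 were above 0, with a median of 0.09. *Mcm5*, a subunit of the replicative helicase on the same chromosome as *Smad1*, was the farthest from 0 at 226 and 138 CPM, a log2 ratio of -0.71 (-0.75 to -0.68). Whether its position bears on this ratio was not tested. The G1/S genes had a median r with the 10 genes of -0.03 in both libraries, against 0.09 and 0.08 for the spindle and cytokinesis genes.

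The genes outside the 10 whose pattern over cells was most like theirs included several with known roles in mitosis. Likeness was the median r with the 10 genes, taking the lower of both libraries, over 6062 genes with a UMI in at least 10% of thinned cells. *Cks2*, a small subunit that binds CDK1, came first, with a median r of 0.23 in WT and 0.20 in the S1/5 dKO-labelled library. *Arl6ip1* (0.20 and 0.21), *Jpt1* (0.19 and 0.17) and *Prc1*, which bundles microtubules of the central spindle (0.19 and 0.17), followed. *Nusap1*, *Smc4*, *Cenpe*, *Bub3* and *H2afx* were also among the 10 highest, with values that round to 0.15 or more in both libraries. Of the genes named here, *Cks2* at 566 and 587 CPM and *H2afx* at 680 and 716 CPM were the most abundant.

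At the other end were replication-dependent histone genes, which are transcribed in S phase. *Hist1h2ap* had a median r of -0.23 and -0.22, *Hist1h1b* of -0.20 and -0.21, and *Hist1h2ae* of -0.17 and -0.18. *Hist1h1e* had -0.13 and -0.14, and *Hist1h1a* -0.13 in both. For comparison, 5% of genes lay below -0.03 and 5% above 0.04 in WT. Replication-dependent histone transcripts mostly lack poly(A) tails, and many core histone genes are near-identical in sequence, so the counts of these genes are uncertain. Their own ratios between the libraries ranged from -0.03 to 0.12.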

How the data were processed

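The authors made 1 Chromium 3′ v3 library per genotype and counted UMIs with Cell Ranger 3.0.2 against mm10, per the submitters' processing notes. The deposited values are raw UMI counts per gene and barcode, and were used as deposited. Following the study's methods, barcodes needed 1000 or more detected genes and no more than 5% mitochondrial UMIs, and no doublet caller was run. Depth was 95965242 UMIs in 2236 WT cells and 109020533 in 2910 cells of the S1/5 dKO-labelled library. UMIs were summed over cells. CPM had exact Poisson intervals, ratios exact conditional binomial intervals and shares exact (Clopper-Pearson) binomial intervals, all at 95%, for counting error only, since cells of a library are not replicates. Cells were thinned to 10000 UMIs by seeded sampling without replacement.

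The named genes are the 10 regulators, *Smad1*, *Smad5*, genes at the extremes of level or ratio in each pathway list, and the 10 genes most and the 5 least like the regulators, of which 1 is not reported here. *Foxm1* was named in addition, after its values were seen. The members and lists were chosen with earlier results of these data known. Alternatives covered the limits on cells, thinning, per-cell means, TMM scaling, median-ratio scaling, high-UMI cells and bins of cell totals. Python 3.11.15, numpy 2.4.6, scipy 1.17.1, pandas 2.3.3, R 4.3.3 and edgeR 4.0.16 (TMM only) were used, and the scripts were tested on simulated data.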

Additional observations from a re-analysis of the deposited data

How the results depend on the processing

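With 1 library per genotype, no setting below replaces a replicate. Under the 11 alternatives the log2 ratio stayed above 0 for 9 genes and below 0 for *Cdc20*, so the count above 0 was 9 in each. The ratio of the summed UMIs, 0.0769 as reported, was 0.0992 as a mean of per-cell CPM, 0.0864 with TMM scaling and 0.0900 without cells above 2 times the median total. It was 0.186 as the equal-weight mean over common bins of cell totals, which was chosen after seeing the data. The count of genes that were 2-fold or more apart, 178 with a minimum of 50 UMIs, was 402 with 20, 61 with 200 and 35 with 500 UMIs, and none of the 10 was among them, since none reached 2-fold. The median correlation of the pairs was lower at lower depth, at 0.114 in WT and 0.0943 in the S1/5 dKO-labelled library with 5000 UMIs per cell. Without thinning it was 0.404 and 0.366, taken on counts per 10000 from cells of unequal totals. *Ube2c* had the highest median correlation with the other genes under each of these settings, and the r of *Cdc20* with *Top2a* turned to 0.00199 in WT at 5000 UMIs. With 3 bins of cell totals in place of 5, the log2 ratio of the summed CPM was 0.642 in WT and 0.532 in the other library, and without high-UMI cells it was 0.696 in WT.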
